A study of Bos taurus with 12 samples.

Results

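The bovine annotation numbers the genes of the mitochondrial genome close together, and the rows described here are those of the count table from ENSBTAG00000043540 to ENSBTAG00000043590. This range held 45 of the 27607 rows, and the 31 with 1 or more counts over the 12 libraries were taken as members. The other 14 rows had 0 counts in all libraries, which allows at most 3 of 209206416 counts for each. By the rule, 15 members with 10000 or more counts in all are called high and 16 members below that are called low. The boundary fell between ENSBTAG00000043546, with 27348 counts, and ENSBTAG00000043581, with 7758.

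The libraries were made from peripheral white blood cells (PWBCs) of 12 Simmental-Angus crossbred heifers, with 1 library per heifer, drawn 2 days before artificial insemination (AI). The 6 fertile heifers were labelled pregnant and had conceived at the first AI, and the 6 subfertile heifers were labelled open, meaning that neither AI nor 60 days of natural service gave a pregnancy. All 12 were put through the same synchronization, with 100 µg of gonadotropin-releasing hormone, a progesterone insert of 1.38 g kept in for 7 days, 25 mg of dinoprost and AI 54 h after removal of the insert. Within each group 5 heifers had a reproductive tract score of 4 and 1 had a score of 5. PWBCs are a mixture of cell types, no counts of these cells were used here, and the groups were set by outcome after sampling.

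Mitochondria keep a small circular genome, present in many copies per cell and read from both strands as long transcripts that are then cut into messenger, ribosomal and transfer RNAs. Its messages encode core subunits of respiratory complexes I, III and IV and of the ATP synthase, while all other subunits, the proteins of the mitochondrial ribosome and the mitochondrial RNA polymerase come from nuclear genes. Messenger and ribosomal RNAs of mammalian mitochondria can carry short poly(A) tails, so poly(A) selection keeps part of them, whereas mature transfer RNAs end in CCA and are short. Among blood cells, lymphocytes and monocytes hold more mitochondria than mature neutrophils, and platelets carry mitochondria without a nucleus.

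RefSeq lists 37 genes on the bovine mitochondrial chromosome (assembly ARS-UCD2.0), namely 13 protein-coding genes (ND1, ND2, COX1, COX2, ATP8, ATP6, COX3, ND3, ND4L, ND4, ND5, ND6 and CYTB), 2 ribosomal RNA genes and 22 transfer RNA genes. The range therefore held 8 more rows than that chromosome has genes. The tables used pair 1 member with a name. ENSBTAG00000043581 is TXNRD2, the mitochondrial thioredoxin reductase, which RefSeq places on chromosome 17, so the range is not made of mitochondrial genes alone. The other members are given by their identifiers, because no table used pairs them with ND1, COX1 or any other name. The 15 high members equal in number the protein-coding and ribosomal RNA genes together, which is an equality of numbers and not a match of genes.

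Total counts were 14010736 to 21278761 per library and 15625 to 16323 genes had a count. Of the blood cell markers with a name, CD79A of B cells was at 335 to 719 CPM (CPM, the usual depth-scaled count, on library totals scaled by TMM factors), CD3E and CD2 of T cells together at 401 to 902 CPM and CD68 of monocytes at 8.76 to 23.5 CPM, while no erythroid marker had a name. The fertile library LM1330 stood apart from the others. Its platelet markers ITGA2B, GP9 and TUBB1 summed to 7983 CPM against at most 2646 CPM elsewhere, and CCR3, an eosinophil chemokine receptor, was at 207 CPM against at most 51.4 CPM. CXCR2, a neutrophil chemokine receptor, had 0 counts in LM1330. Results that rest on this library are given with and without it.

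The high members made up a large and variable share of all counts. Their summed share was 9.78% in LM1244, 17.2% in LM1247, 17.1% in LM1262, 8.0% in LM1286, 13.2% in LM1298 and 5.71% in LM1330, all fertile. In the subfertile libraries it was 8.21% in LM1246, 17.5% in LM1251, 6.42% in LM1259, 18.5% in LM1265, 19.8% in LM1283 and 8.24% in LM1313. The highest library thus held 3.46 times the share of the lowest, and both groups had low and high libraries.

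The mean summed share was 11.8% ± 4.80 (SD, n = 6) in fertile and 13.1% ± 6.09 in subfertile heifers. The difference of 1.28 percentage points was smaller than either SD and the groups overlapped. Without LM1330 the fertile mean was 13.1% ± 4.18 (n = 5) and the difference 0.053 points, and without the subfertile library LM1283 the difference turned to -0.052 points. The difference rose to 2.62 points without LM1259, 2.36 without LM1247 and 2.33 without LM1262. It was 2.26 points without LM1246 and 2.25 without LM1313. The widest step between neighbouring libraries lay between 13.2% and 17.1%, with 7 libraries below it, 4 fertile and 3 subfertile, and 5 above it. Counting error was small beside this spread, since the widest 95% Wilson interval of a library's summed share was 0.04 points across. These intervals cover the counting error of reads alone. The reads carry no molecular identifiers, so copies of 1 molecule cannot be told from separate molecules. In such bulk libraries, fewer cells of a type and less of an RNA per cell cannot be told apart.

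**Figure D1:**
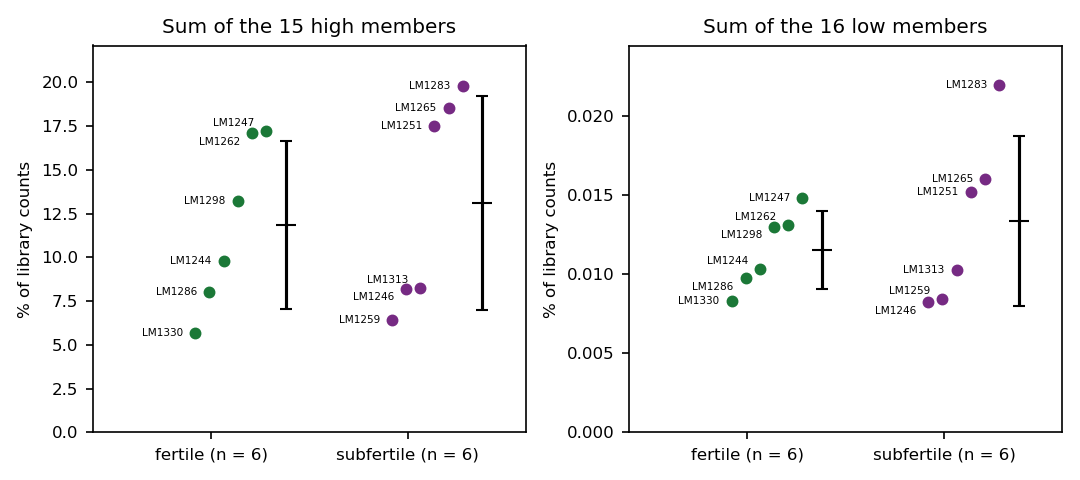
Summed share of the high members (left) and of the low members (right), in % of all counts of a library, for 6 fertile and 6 subfertile heifers; points are libraries, and the bar with whiskers is the group mean ± SD. Both groups run from low to high, from 5.71% to 17.2% for the high members in fertile and from 6.42% to 19.8% in subfertile heifers.

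ENSBTAG00000043561 was the most counted gene of the whole table, with 10040045 counts. Its share of all counts was lowest at 1.82%, median 4.59% and highest at 7.13% in fertile heifers, and lowest at 2.60%, median 5.26% and highest at 7.40% in subfertile heifers. The lowest library was LM1330 and the highest LM1283, and the groups overlapped over most of their range. It ranked above every other high member in 12 of 12 libraries and had 4.36 times the total counts of the next one. Gene lengths could not be matched to the members, so shares here are shares of reads, and an order among members is an order of counts and not of RNA molecules.

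The next 10 members by total counts spanned a narrow range. ENSBTAG00000043560 had 2301385 counts and was second in 10 libraries, while ENSBTAG00000043558 (1868620 counts) and ENSBTAG00000043584 (1857073) were second in 1 each. ENSBTAG00000043558 was above ENSBTAG00000043584 in 5 of 12 libraries, so these neighbours had no fixed order. The same held for ENSBTAG00000043577 (1708791 counts) and ENSBTAG00000043556 (1684185), with the first ahead in 5 libraries, and ENSBTAG00000043556 was ahead of ENSBTAG00000043550 (1637595) in 7. ENSBTAG00000043563 (1331404) was ahead of ENSBTAG00000043571 (1270577) in 6 libraries and ENSBTAG00000043570 (892739) ahead of ENSBTAG00000043568 (855931) in 7. High members made up 8 of the 10 most counted genes and 11 of the top 15.

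Below them the counts fell by steps. ENSBTAG00000043568 had 4.28 times the counts of ENSBTAG00000043567 (200103), which was 12th in all 12 libraries and had 4.46 times those of ENSBTAG00000043559 (44854). ENSBTAG00000043545 (28837) was ahead of ENSBTAG00000043546 in 6 of 12 libraries. These last 3 were at 67.1 to 427 CPM, 67.1 to 236 CPM and 68.1 to 246 CPM, far below ENSBTAG00000043561 at 18650 to 82720 CPM.

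**Figure D2:**
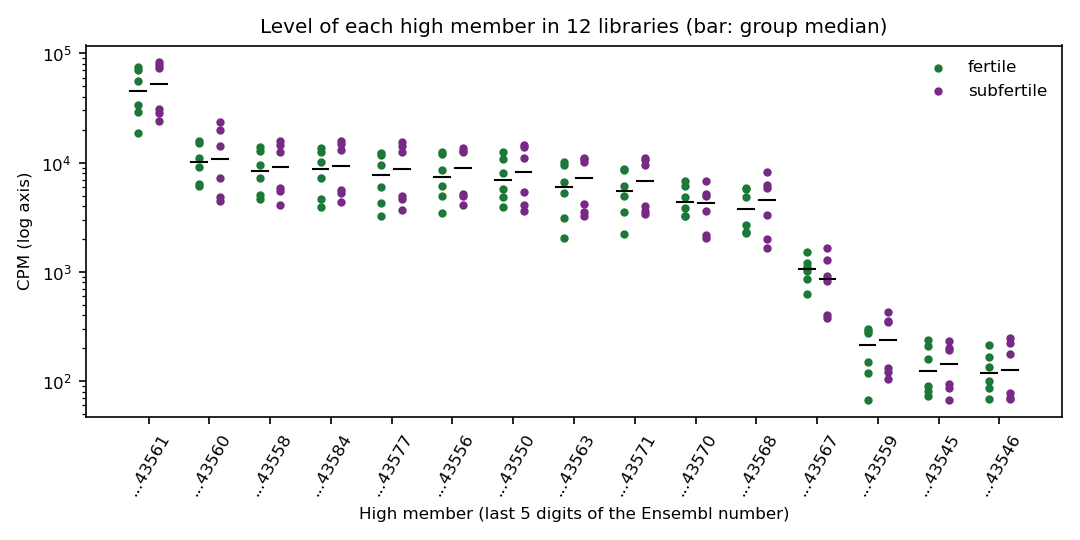
Level of each high member in CPM (log axis) in 12 libraries, with fertile libraries on the left of each pair, subfertile ones on the right and a bar at each group's median; members are named by the last 5 digits of their Ensembl number. ENSBTAG00000043561 lies above all others and ENSBTAG00000043559, ENSBTAG00000043545 and ENSBTAG00000043546 lie lowest, and the groups overlap for every member.

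The 16 low members together took 0.0082% to 0.022% of the counts. Their sum was 0.0116% ± 0.00248 in fertile and 0.0134% ± 0.00538 in subfertile heifers, and the groups overlapped. The difference of 0.00181 percentage points fell to 9.1e-05 points without LM1283 and rose to 0.00284 points without LM1246. There were 0.0766 (LM1262) to 0.145 (LM1330) low-member counts for every 100 high-member counts. With TXNRD2 left out of the low members this was 0.0523 (LM1262) to 0.0873 (LM1283). Of the low members, TXNRD2 had 7758 counts and ENSBTAG00000043572 had 7251, followed by ENSBTAG00000043582 (3111), ENSBTAG00000043564 (2559), ENSBTAG00000043565 (2493) and ENSBTAG00000043547 (1431). ENSBTAG00000043589 (351), ENSBTAG00000043579 (307), ENSBTAG00000043583 (150) and ENSBTAG00000043580 (147) completed the 10 that passed the filter on low counts. The 6 that did not pass had 17 to 113 counts in all. One of these, ENSBTAG00000043548, had 0 counts in 6 libraries and up to 29 counts in the others, in both groups.

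The high members varied together across heifers. Over the 12 libraries the SD of log2 CPM was 0.58 to 0.87 for the high members, with a median of 0.76, against a median of 0.30 over the 13012 genes of the fit. Against the log2 CPM of ENSBTAG00000043561, Pearson's r of the other 14 high members was 0.45 to 0.996 with a median of 0.97. It was highest for ENSBTAG00000043556 (0.996) and ENSBTAG00000043577 (0.99). The members sit in the same 12 libraries and share their depth and scaling, so these correlations are descriptions.

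A pair of high members followed the others less closely. For ENSBTAG00000043570 r was 0.57, and 0.88 without LM1330. For ENSBTAG00000043567 r was 0.45, and 0.77 without LM1330. The remaining 12 high members were at 0.90 or above.

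The low members followed to different degrees. ENSBTAG00000043572 had r = 0.93, ENSBTAG00000043564 0.89 and ENSBTAG00000043565 0.87. ENSBTAG00000043589 had r = 0.06 at 15 to 53 counts per library, while ENSBTAG00000043579, at 8 to 70 counts, had 0.79 and ENSBTAG00000043583, at 0 to 29 counts, had 0.77. TXNRD2, the only member that could be placed on a nuclear chromosome here, had r = 0.45. Its SD of log2 CPM, 0.29, was the smallest of the members in the fit and close to the median over all genes. TXNRD2 was at 29.1 to 44.5 CPM (median 36.5) in fertile and 25.0 to 52.6 CPM (median 37.5) in subfertile heifers. Its level thus ranged far less than those of its numerical neighbours. Whether other members are nuclear is not known here.

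**Figure D3:**
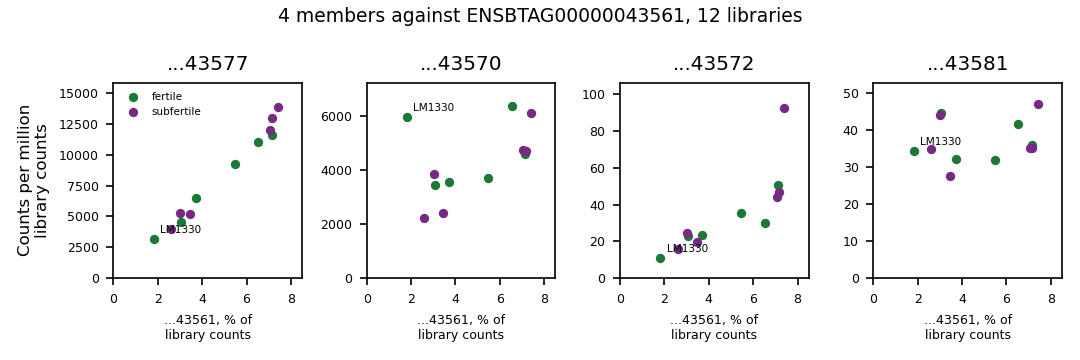
CPM without TMM scaling of 4 members against the share of ENSBTAG00000043561 (% of library counts) in 12 libraries, fertile in green and subfertile in purple. ENSBTAG00000043577 and ENSBTAG00000043572 rise with it (r on log2 CPM 0.99 and 0.93), ENSBTAG00000043570 rises with it apart from LM1330, and ENSBTAG00000043581, which is TXNRD2, stays in a narrow band.

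Within the high members, the makeup of the sum differed most in LM1330. ENSBTAG00000043570 took 10.4% of the high-member counts in LM1330 and 2.54% to 4.65% in the others. ENSBTAG00000043567 took 2.58% in LM1330 and 0.498% to 1.36% in the others. ENSBTAG00000043561 took 31.9% in LM1330 and 36.7% to 42.0% in the others. Thus the library with the lowest summed share had the highest shares of both ENSBTAG00000043570 and ENSBTAG00000043567 within it. Per 100 counts of ENSBTAG00000043561, LM1330 held 32.7 of ENSBTAG00000043570, against a median of 8.38 over all libraries, and 8.10 of ENSBTAG00000043567, against a median of 1.69.

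The levels of this pair in LM1330 were near the top of their range, and the share of ENSBTAG00000043567 in all counts was the highest of the 12 libraries there, 0.1474% against 0.1466% in LM1283. On the TMM-scaled CPM scale ENSBTAG00000043570 was at 6108 CPM there and at 2054 to 6807 CPM over all libraries, and ENSBTAG00000043567 at 1511 CPM, between 376 and 1637 CPM. ENSBTAG00000043561 was at its lowest there, 18650 CPM. There were 0.177 to 0.318 counts of ENSBTAG00000043567 per count of ENSBTAG00000043570, a 1.80-fold range. The next highest shares of ENSBTAG00000043567 and ENSBTAG00000043570 within the sum were in LM1286 (1.36%) and LM1313 (4.65%), 1 fertile and 1 subfertile library, at platelet marker sums of 1217 and 1059 CPM. The platelet markers were at 7983 CPM in LM1330, and their part in the makeup was not tested.

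Over the 12 libraries the coefficient of variation of a member's share of the sum was 65.8% for ENSBTAG00000043567 and 55.3% for ENSBTAG00000043570. Without LM1330 these were 34.4% and 21%, still above the other high members, of which ENSBTAG00000043560 varied most, at 19%. The share of ENSBTAG00000043560 was highest in LM1286, at 12.1%, and lowest in LM1246, at 6.58%. The steadiest over the 12 libraries was ENSBTAG00000043556, at 5.93% to 6.97% of the sum, and without LM1330 it was ENSBTAG00000043561, with a coefficient of variation of 4.6% against 4.75%.

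**Figure D4:**
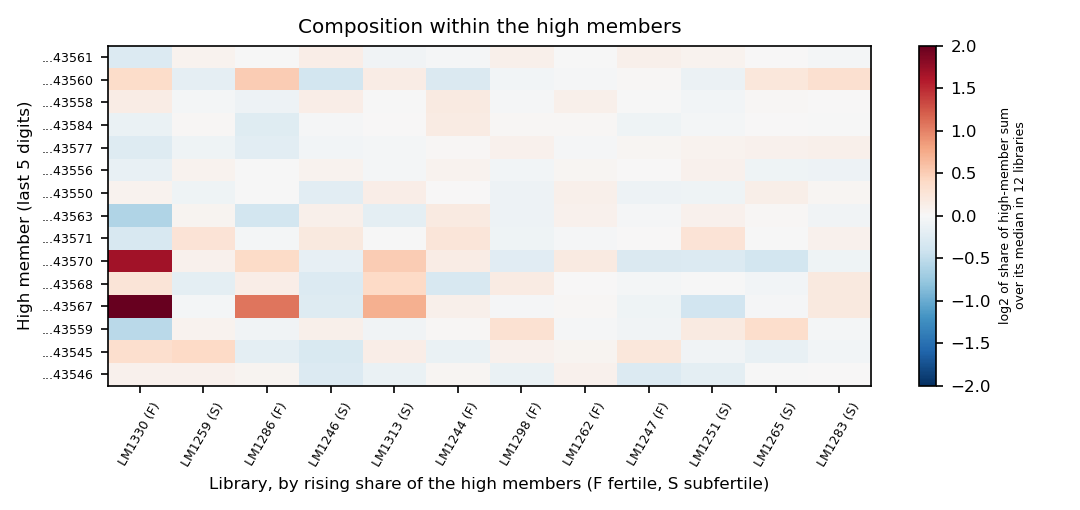
Share of each high member in the high-member counts of a library, as log2 of its ratio to the member's median over 12 libraries (colour), with libraries ordered by rising summed share (F fertile, S subfertile). LM1330 on the left has the strongest colours, with ENSBTAG00000043570 at 10.4% and ENSBTAG00000043567 at 2.58% of the sum; most other cells are near 0.

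Between the groups, no high member had a different share of the sum by a two-sided exact permutation test over the 12 libraries, with P from 0.0823 to 0.931, and the groups overlapped for all 15. The smallest P was that of ENSBTAG00000043571, at 3.79% to 5.60% (median 4.65%) in fertile and 4.69% to 5.74% (median 5.22%) in subfertile heifers. Its means were 4.66% ± 0.58 and 5.21% ± 0.49 (n = 6 each), which exact permutation did not separate (P = 0.0823, unadjusted over 15 members), and P with a single library removed ran from 0.0216 (without LM1244) to 0.165 (without LM1251 or LM1259). For ENSBTAG00000043570 the means were 4.59% ± 2.93 and 3.23% ± 0.77 (exact permutation P = 0.333). Without LM1330 the fertile mean was 3.42% ± 0.67 and the exact permutation P 0.667.

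None of the 25 members in the fit was called between subfertile and fertile heifers by edgeR at an unadjusted P of 0.05 or less with a log2 fold change (log2FC) of at least 0.5 in size. Of all 13012 genes tested, 182 were called under that rule, which is 1.4%, with 0.661% higher and 0.738% lower in subfertile heifers. At an edgeR P of 0.05 or less alone, 0 of 25 members and 2.62% of all genes passed, and by the exact permutation test of log2 CPM 0 of 25 and 2.71%. At an adjusted P of 0.05 or less no gene passed. The shares of all 31 members overlapped between the groups, and the CPM ranges did not overlap for 0.123% of all genes. DESeq2 and limma with voom also called 0 members, against 1.77% and 1.1% of all genes. With every gene of 1 or more counts in the fit, edgeR called 0 of 31 members and 3.21% of all genes.

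The high members' log2FC, as subfertile against fertile, were -0.22 to 0.31 with a median of 0.19, against 0.0076 over all genes. Their edgeR P were 0.435 to 0.91. For ENSBTAG00000043561 the fertile mean was 47047 ± 23237 CPM and the subfertile mean 52975 ± 27753 CPM (SD, 6 libraries each), a log2FC of 0.17 with a 95% interval of -0.68 to 1.03. The counts are compatible with a difference of either sign within this interval, or with none. Of the high members, 13 of 15 were above 0, against 51.8% of all genes, and since they vary together across heifers this count stands for few independent values. Without the subfertile library LM1283, 9 of those 13 turned below 0, and without LM1330 3 did. The exceptions in the fit of all libraries were ENSBTAG00000043567 at -0.22 (interval -0.93 to 0.49) and ENSBTAG00000043570 at -0.18 (interval -0.82 to 0.45). Without LM1330 these were at -0.09 and -0.10, and ENSBTAG00000043561 at 0.0024. Without LM1283 ENSBTAG00000043567 was at -0.47 and ENSBTAG00000043570 at -0.38, farther from 0 than with all libraries.

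The 10 low members in the fit had log2FC of 0.03 to 1.01, all above 0, and 6 of them turned below 0 without LM1283. The largest was that of ENSBTAG00000043580, with counts between 2 and 32 per library. It was at 0.121 to 1.09 CPM (median 0.386) in fertile and 0.323 to 2.29 CPM (median 0.782) in subfertile heifers. The highest fertile library, LM1262, lay above the subfertile median, so the groups overlapped. Its log2FC was 1.01 (standard error 0.54, interval -0.15 to 2.17, edgeR P = 0.0838, adjusted P = 0.9998), and an exact permutation test gave P = 0.0866. Leaving out LM1262 brought the edgeR P to 0.0226 and leaving out LM1313 to 0.0448, in each case unadjusted. Leaving out LM1251 brought the log2FC to 0.57, so the difference moved with single libraries in both directions.

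ENSBTAG00000043572 was at 11.1 to 53.1 CPM (median 26.9) in fertile and 14.7 to 104 CPM (median 34.5) in subfertile heifers. LM1283 was far above the other subfertile libraries, with 1790 counts against at most 720, and the groups overlapped below it. The log2FC was 0.54 (interval -0.45 to 1.53, exact permutation P = 0.513), and 0.06 without LM1283. For ENSBTAG00000043579 it was 0.65 (interval -0.41 to 1.70, exact permutation P = 0.312), 0.26 without LM1283 and 1.02 without LM1247. TXNRD2 had a log2FC of 0.03 with the narrowest interval of the 25 members, -0.32 to 0.37.

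**Figure D5:**
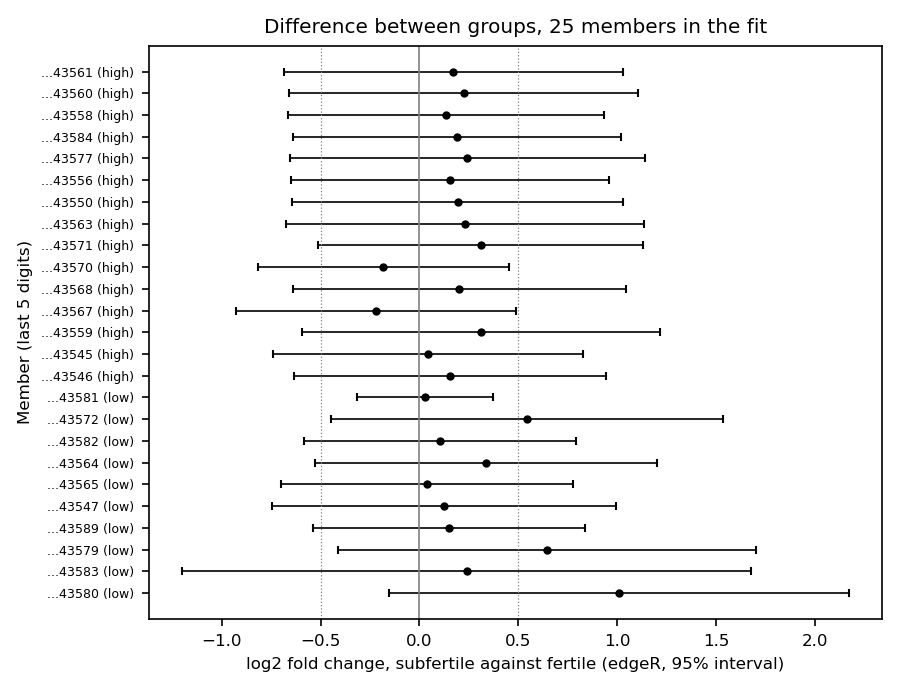
Log2 fold change of the 25 members in the edgeR fit, subfertile against fertile, with 95% intervals; the solid line is 0 and the dotted lines mark 0.5 in either direction. Every interval includes 0, and the widest belongs to ENSBTAG00000043583, at -1.20 to 1.67.

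Within the libraries, the share of ENSBTAG00000043561 was set against 3 other measures. With the number of genes that had a count it gave Pearson's r = -0.64 (permutation P = 0.0303, adjusted over the 3 relations 0.0909) and Spearman's rho = -0.54 (permutation P = 0.0751, adjusted 0.225). Leaving out the 2 farthest libraries, LM1330 and LM1283, gave r = -0.90, and r was -0.59 within fertile and -0.74 within subfertile heifers. Both measures come from the same counts, and reads of the high members leave fewer for other genes, so they are not independent. LM1247 had 11595315 counts of other genes and 15731 genes with a count, and LM1246 had 17820228 and 16323. The part of this link in r was not tested. With total counts r was -0.29 (permutation P = 0.358) and -0.52 without the 2 farthest libraries, and with the share of TXNRD2 it was 0.18 (permutation P = 0.565) and -0.09.

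Marker levels were set beside the member in the same way, on the log2 CPM scale, with and without LM1330. Over 12 libraries r with ENSBTAG00000043561 was 0.75 for the sum of CXCR2 and S100A9, which mark neutrophils, and 0.73 for CD68 of monocytes. Without LM1330 these were 0.645 and 0.646. The platelet markers had r = 0.12 over 12 libraries and 0.72 without LM1330, and CCR3 -0.03 and 0.62. For CD3E with CD2 r was 0.24 and 0.65, for PRF1 with GZMB (natural killer cells) -0.0031 and 0.35, and for CD79A -0.07 and 0.10. Thus with LM1330 left out r was between 0.62 and 0.72 for markers of 5 of the 7 cell types. CXCR2 was at 0 to 7.82 CPM and S100A9 at 21.7 to 211 CPM, with 2 of 6 neutrophil markers named. The sum of the pair ranged from 21.7 to 155 CPM in fertile and 52.0 to 215 CPM in subfertile heifers. Leaving LM1330 out of these correlations was chosen after seeing the data. The part of any cell type in the member shares was not tested.

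Among the 12987 genes of the fit that are not members, the log2 CPM most like the log2 of the summed CPM of the high members was that of ENSBTAG00000014779, with r = 0.97 over 12 libraries. ENSBTAG00000038929 (0.91), ENSBTAG00000012575 (0.91), ENSBTAG00000007304 (0.91) and ENSBTAG00000053424 (0.90) followed. The most opposed were ENSBTAG00000002528 (-0.94), ENSBTAG00000012341 (-0.92), ENSBTAG00000006995 (-0.92), ENSBTAG00000016562 (-0.91) and LURAP1 (-0.91). The median r over all 12987 genes was 0.03, and the named genes are the extremes of these values, picked by their r. ENSBTAG00000014779 was at 143 to 204 CPM, a far narrower range than that of the members. Counts were few for ENSBTAG00000053424, at 0.475 to 2.03 CPM (230 counts in all), and for LURAP1, at 0.30 to 2.30 CPM (252 counts).

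Nuclear genes for mitochondrial proteins were read from the same fit. Of the listed genes, 52 had a name and were tested, and none was called, against 1.4% of all genes, with a median log2FC of 0.03. The edgeR P was 0.05 or less for 1 of them, near the 2.62% of all genes. DESeq2 and limma with voom called none either. The named genes are a part of each list, 8 of 37 nuclear complex I subunits, 2 of 12 of complex IV, 5 of 18 of ATP synthase, 5 of 21 of DNA transcription and replication and 5 of 28 of RNA processing and decay, with 27 genes of the mitochondrial ribosome and none of complexes II and III. Names come from tables made with these samples, so the named genes are not a neutral sample of each list.

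SUPV3L1, the helicase of the mitochondrial RNA degradosome, averaged 26.1 ± 5.53 CPM (SD) over the 6 fertile and 33.9 ± 4.56 CPM over the 6 subfertile heifers. Its log2FC was 0.37 (interval 0.07 to 0.68, edgeR P = 0.0202, adjusted P = 0.9998, exact permutation P = 0.0325). This is below the fold threshold of the rule. PNPT1, the nuclease that works with it, had a log2FC of 0.18 (exact permutation P = 0.318), and REXO2, which degrades short RNAs in mitochondria, -0.17 (exact permutation P = 0.494). TFB2M, a transcription initiation factor of the mitochondrial polymerase, had a log2FC of 0.19 (exact permutation P = 0.182), MTERF3, a repressor of mitochondrial transcription, 0.14 (exact permutation P = 0.42) and TWNK, the mitochondrial DNA helicase, 0.06 (exact permutation P = 0.478).

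Of the respiratory chain, NDUFB1 of complex I had a log2FC of 0.32 (interval -0.0040 to 0.64, edgeR P = 0.0525, adjusted P = 0.9998, exact permutation P = 0.0281, unadjusted). Its means were 7.45 ± 0.73 CPM (fertile) and 9.30 ± 1.57 CPM (subfertile). NDUFA7 was at 0.10 (exact permutation P = 0.446) and NDUFB10 at -0.10 (exact permutation P = 0.6). NDUFA4 and COX7A2L, both associated with complex IV, were at -0.13 and 0.06 (exact permutation P = 0.714 and 0.483). ATP5IF1, the inhibitor of the ATP synthase, had a log2FC of -0.71 (interval -1.56 to 0.14, exact permutation P = 0.309). Its means were 92.3 ± 72.2 CPM (fertile) and 56.3 ± 20.5 CPM (subfertile), with a fertile spread wider than the difference. ATP5PF and ATP5MC3, subunits of the synthase, were at 0.10 and 0.07 (exact permutation P = 0.487 and 0.682). For the small-subunit ribosomal protein MRPS6 the log2FC was -0.73 (exact permutation P = 0.307). ATP5IF1 and MRPS6 were called by edgeR without LM1244, at a log2FC of -0.90 and -0.89, in a fit that called 365 of 13163 genes (2.77%). DAP3 and MRPL15, also of the mitochondrial ribosome, were at 0.14 and 0.15 (exact permutation P = 0.193 and 0.204).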

How the data were processed

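RNA of PWBCs from 12 heifers, labelled as poly(A) RNA, was sequenced from strand-specific libraries. The deposited values are raw counts per Ensembl gene. The authors checked reads with FastQC 0.11.9 and MultiQC 1.12, mapped them to ARS-UCD1.3 with STAR 2.7.5 and counted with its gene count mode, which keeps uniquely mapped reads that fall in 1 gene, so reads shared with nuclear copies of mitochondrial DNA or with overlapping genes are left out. Which strand column was deposited is not given in the sources used here. Shares are percent of a library's summed counts. Genes were kept by filterByExpr (minimum count 10, share of libraries 70%) and tested with edgeR 4.0.16 (quasi-likelihood, TMM, fertility group as the only term), run in R 4.3.3, with Benjamini-Hochberg adjustment over 13012 genes. DESeq2 1.42.0, limma 3.58.1 with voom, other scalings and filters, the tract score and leaving out each library were alternatives. Exact permutation tests ran over the 462 unordered divisions of 12 libraries into 6 and 6, with a smallest P of 0.00216. Members and lists were chosen with earlier results of these data known. High members are all named, low members when in the fit, the 5 most and 5 least correlated other genes, and the 3 smallest P of each nuclear list. Of the low members outside the fit, ENSBTAG00000043548 is named for its libraries without counts, and ENSBTAG00000043541 and ENSBTAG00000043549 for flagged values. Levels of ENSBTAG00000043561 were also set against 3 library measures. The summed monocyte marker list is not reported here.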

Additional observations from a re-analysis of the deposited data

Results flagged for a closer look

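Of 96 group values examined for a library far from the other 5 of its group, 5 stood out, and chance gives about 1 in 20. The fertile library LM1330 gave 2 of them. ENSBTAG00000043570 took 10.4% of the high-member counts there, against 4.28% in the next fertile library, and ENSBTAG00000043561 took 31.9%, against 38% in the next lowest. The platelet markers of LM1330 summed to 7983 CPM, and their part in these shares was not tested. The other 3 were low members at few counts. ENSBTAG00000043579 took 0.00025% of the counts in the fertile library LM1247, with 35 counts, against 0.000122% in the next. ENSBTAG00000043541 took 1.74e-05% in the fertile library LM1244, from 3 counts, and ENSBTAG00000043549 took 2.07e-05% in the subfertile library LM1283, from 4 counts.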

How the results depend on the processing

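No member reached an adjusted P of 0.05 or less under any of the 21 alternatives, and the number of members called stayed at 0 except without LM1262 or LM1313, where it was 1, ENSBTAG00000043580 (range 0 to 1, also for the exact permutation test). These fits called 1.6% and 1.59% of all genes, and 1 call among 26 members is too few to set against that share. DESeq2 without its Cook rule was added after seeing the data and called 0. The difference in summed high share ranged from -0.052 to 2.62 points with a library left out. The number of high members with a different makeup ranged from 0 to 1 (ENSBTAG00000043571 without LM1244, ENSBTAG00000043559 without LM1298), and the nuclear genes called from 0 to 2 (2 without LM1244, where 2.77% of all genes were called). Of 522 member values under alternatives, 483 kept direction and side of the threshold, 2 passed it and 37, of 15 members, changed sign. With voom ENSBTAG00000043547 was at -0.12, ENSBTAG00000043565 at -0.060 and ENSBTAG00000043582 at -0.0043.

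With a library left out, the log2FC of the members that changed sign ran from -0.15 to 0.25 for ENSBTAG00000043545, -0.072 to 0.36 for ENSBTAG00000043546, -0.15 to 0.31 for ENSBTAG00000043547, -0.0088 to 0.39 for ENSBTAG00000043550, -0.0070 to 0.33 for ENSBTAG00000043556, -0.059 to 0.31 for ENSBTAG00000043558, -0.059 to 0.40 for ENSBTAG00000043560, -0.00056 to 0.35 for ENSBTAG00000043561, -0.15 to 0.22 for ENSBTAG00000043565, -0.049 to 0.37 for ENSBTAG00000043568, -0.091 to 0.12 for TXNRD2 (ENSBTAG00000043581), -0.062 to 0.25 for ENSBTAG00000043582, -0.13 to 0.46 for ENSBTAG00000043583, -0.0030 to 0.36 for ENSBTAG00000043584 and -0.021 to 0.27 for ENSBTAG00000043589. The cause was not tested. No paired analysis was possible because the labels give no replicate number shared between the groups. Depth limits the low members with under 200 counts in all, whose single libraries hold 0 to 32 counts.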
